A study of Mus musculus with 12 samples.

Results

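H3K4me3, the trimethyl mark on lysine 4 of histone H3, was compared between IFN-gamma treated KPC1199 cells with high PD-L1 and untreated KPC1199 cells that were not selected for PD-L1. The comparison used the 2 H3K4me3 libraries of these states, of 12 libraries in the study, and every one of the 25507 gene windows of the deposited table. The study read 4 histone marks by CUT&Tag, in which an antibody brings a transposase to the mark so that the DNA beside it is cut and tagged, in 3 cell states with 1 library per mark and state. The PD-L1 high cells had received 10 ng/ml IFN-gamma, as had the cells of the middle state, which were not selected for PD-L1. The untreated cells received no IFN-gamma and were also unselected. All libraries came from cultured pancreatic tumor cells of C57BL/6 origin, a single murine pancreatic ductal adenocarcinoma line. How PD-L1 high cells were picked and how long IFN-gamma was given are not stated in the sources used here. With 1 library on each side there is no replicate check, so values are described with counting intervals and without p-values. The treatment and the selection for PD-L1 cannot be told apart between these 2 libraries.

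H3K4me3 lies over the promoters of genes that are transcribed or ready to be transcribed. IFN-gamma binds its receptor on the cell surface, the receptor's JAK kinases become active, and the signal reaches target promoters at the gamma-activated site (GAS). The pathway also induces IRF1, a transcription factor that binds the interferon-stimulated response element (ISRE), and the joint targets include the guanylate-binding proteins (GBPs), the immunity-related GTPases (IRGs), the immunoproteasome, peptide transporters, MHC class I and PD-L1 itself, the product of Cd274.

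Promoter stretches that carry these motifs at 12 of the higher windows are shown first, chosen for how the motifs are arranged and for the range of gene functions. They come from the RefSeq promoter table on the mm10 assembly (GRCm38.p6), are written 5′ to 3′ along the gene, and have in capitals each GAS, searched as TTC, any 3 bases, GAA, and each ISRE core, searched as TTTC, any 2 bases, TTTC, on either strand. The first 4 are shown because they align: a GAS and a reverse-strand ISRE core begin 11 bases apart in the IRG genes Tgtp1 (chr11:48992304-48992344, minus strand), Tgtp2 (chr11:49064263-49064303, minus strand), Igtp (chr11:58199501-58199541, plus strand) and Irgm2 (chr11:58214892-58214932, plus strand).
Tgtp1: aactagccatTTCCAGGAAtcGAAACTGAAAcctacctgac
Tgtp2: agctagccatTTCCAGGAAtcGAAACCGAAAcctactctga
Igtp: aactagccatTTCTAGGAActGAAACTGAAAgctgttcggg
Irgm2: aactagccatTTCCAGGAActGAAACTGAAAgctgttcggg
The next 4 show the motifs alone or combined in Gm12250, another gene of the IRG cluster (chr11:58183742-58183816, plus strand), and in the GBP genes Gbp2 (chr3:142620594-142620623, plus strand), Gbp3 (chr3:142559989-142560024, plus strand) and Gbp7 (chr3:142530220-142530302, plus strand).
Gm12250: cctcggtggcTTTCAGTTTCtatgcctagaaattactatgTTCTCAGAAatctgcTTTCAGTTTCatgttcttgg
Gbp2: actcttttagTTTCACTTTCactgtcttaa
Gbp3: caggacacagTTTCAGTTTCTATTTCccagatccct
Gbp7: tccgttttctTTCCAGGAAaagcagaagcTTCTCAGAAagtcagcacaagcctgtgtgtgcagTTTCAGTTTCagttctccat
The last 4 stand for other functions: Psmb8, a catalytic subunit of the immunoproteasome (chr17:34198088-34198116, plus strand), Casp12, an inflammatory caspase (chr9:5345364-5345458, plus strand), Oas3, an enzyme that makes the activator of RNase L (chr5:120777715-120777744, minus strand), and Tmem140, a membrane protein gene (chr6:34863073-34863102, plus strand).
Psmb8: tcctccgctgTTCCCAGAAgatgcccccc
Casp12: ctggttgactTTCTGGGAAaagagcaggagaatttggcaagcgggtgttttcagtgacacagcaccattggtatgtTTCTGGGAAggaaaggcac
Oas3: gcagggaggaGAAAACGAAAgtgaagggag
Tmem140: gttaaaaaacGAAAGTGAAAtcagctgaga

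Values are normalised tags per window, read as tag densities over windows of 6000 bases. Both libraries had a depth near 10 M tags if the authors scaled to 10 M, which is inferred from the values: 10.11 M in PD-L1 high cells and 10.04 M in untreated cells. The tags summed over all windows, which count a tag again wherever windows overlap, came to 8833599 in PD-L1 high cells and 7095830 in untreated cells. Ratios are log2 of PD-L1 high over untreated after 1.99 tags were added to each value, centred on the median of the 12754 windows whose mean over the 3 H3K4me3 libraries reached that of the median window, 57.6 tags. The median before centring was 0.31. Intervals in brackets are 95% exact binomial intervals of the ratio and cover counting error only, and since no molecular identifiers are given, reads cannot be taken as independent molecules. The carcinoma genes Krt8, Krt18, Krt19 and Sox9 had 1380 to 2005 tags in PD-L1 high cells and 1172 to 1438 tags in untreated cells. Epcam had only 58.4 tags in PD-L1 high cells and 75.7 tags in untreated cells, and Cdh1, which encodes E-cadherin, had 157 tags in PD-L1 high cells and 136 in untreated cells. Of 26 leukocyte marker genes, 22 lay below the level filter, among them Ptprc, which encodes CD45, with 0.99 tags in PD-L1 high cells and 4.98 in untreated cells. The 4 above it were Cd14, Cd68, Coro1a and Fcgr3. Cd14 had 730 tags in PD-L1 high cells and 579.5 in untreated cells, and Cd68 had 369 and 314. The leukocyte list summed to 1438 tags in PD-L1 high cells and 1472 tags in untreated cells, a large part of them from Cd14. Of 20 fibroblast, endothelial and stellate cell markers, 15 lay below the filter, and this list summed to 966 tags in PD-L1 high cells and 1058 tags in untreated cells.

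Across the windows above the filter, H3K4me3 was much alike in both libraries, and the highest ratios were those of GBP and IRG genes and of Rtp4. Of the 12754 windows, 80.7% lay within 1.25-fold of the centre. In PD-L1 high cells 60 windows (0.47%) were at least 2-fold higher, and 267 windows (2.09%) were lower by 2-fold or more. The difference in size ran the other way: 22 of the 60 higher windows had a log2 ratio of 2 or more and 7 reached 4, whereas 4 of the 267 lower windows went to -2 or below. The level filter bears on this contrast, since both IFN-gamma libraries enter its mean. A window near 0 in untreated cells can pass through them, while a window near 0 in both of them needs a high untreated value. All 60 and all 267 had counting intervals that left out 0. The intervals come from the same tags as the 2-fold calls, so this is no separate evidence for the calls. The whole interval lay past 2-fold in 40 higher and 62 lower windows. The split depended on the scaling. Without centring 94 windows were higher and 99 lower, and after quantile normalisation 96 were higher and 56 lower. Of the 60 higher windows 57 stayed higher under every scaling tried, and of the 267 lower windows 47 stayed lower. Just inside the higher threshold were Irf1 at a log2 ratio of 1.001 and the shared window of Wars and Wdr25 at 1.0, and just outside it were Tnfsf10 at 0.998 and Mir1901 at 0.983.

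**Figure D1:**
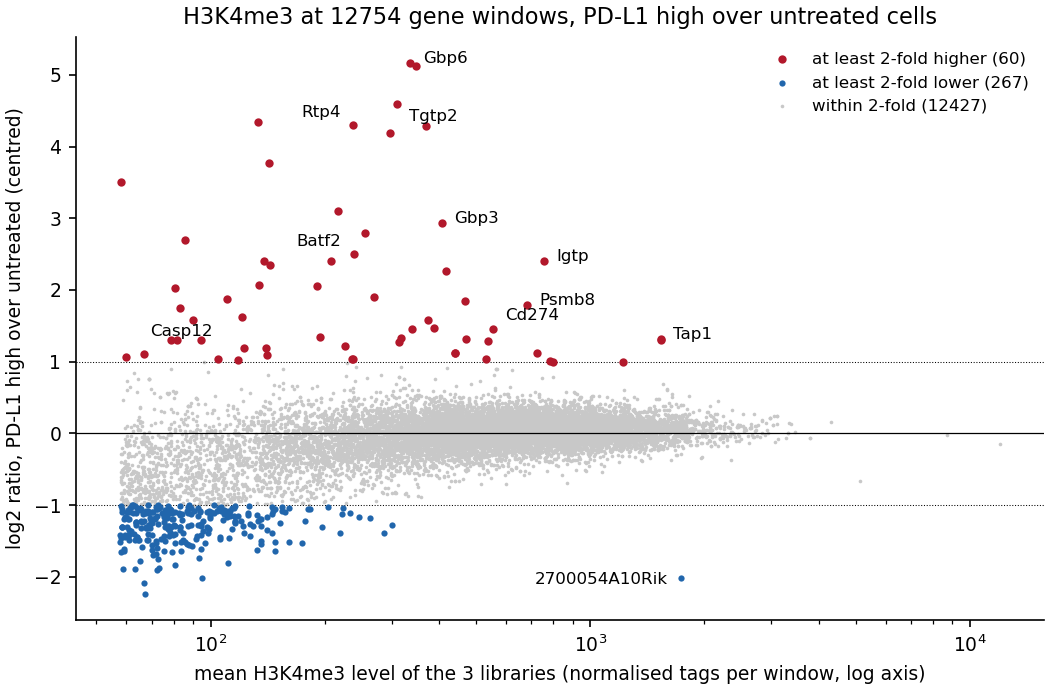
Each point is 1 gene window above the level filter, with the mean H3K4me3 level of the 3 libraries on a log x axis and the centred log2 ratio of PD-L1 high over untreated on the y axis, and dotted lines at 2-fold. The 60 higher windows reach a log2 ratio of 5.16, and 51 of them lie among the 6377 windows with the lowest levels. The lower windows lean further to the left edge, with 233 of the 267 in the lowest decile by level.

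The GBP genes had the highest ratios of the table. GBPs are large GTPases that coat and break open the vacuoles of intracellular microbes. All 10 GBP genes above the filter, of 11 in the list, passed 2-fold upward in PD-L1 high cells, and they had a median log2 ratio of 3.22, against 0 over all windows by the centring. Gbp6 (chr5:105270702-105295871) had 528 tags in PD-L1 high cells and 469 tags in unselected IFN-gamma cells, against 9.96 tags in untreated cells, a log2 ratio of 5.16 [4.53 to 6.49]. Gbp4 had 559 tags in PD-L1 high cells, 473 in unselected IFN-gamma cells and 10.95 in untreated cells, a log2 ratio of 5.13 [4.51 to 6.37]. Both IFN-gamma libraries were thus high and close to each other, and the untreated library stood apart near the lowest levels of the table. Gbp10 had 224 tags in PD-L1 high cells, 169 in unselected IFN-gamma cells and 6.97 in untreated cells, a log2 ratio of 4.34 [3.63 to 6.02]. Gbp11 and Gbp8 had log2 ratios of 3.77 and 3.51.

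The GBP genes with a higher level in untreated cells had smaller ratios. Gbp3 had 659 tags in PD-L1 high cells, 490 in unselected IFN-gamma cells and 67.7 in untreated cells, a log2 ratio of 2.94 [2.61 to 3.36]. Gbp2 had 659 tags in PD-L1 high cells, 482 in unselected IFN-gamma cells and 109.5 in untreated cells, a log2 ratio of 2.26 [1.99 to 2.58]. Gbp7 had 715 tags in PD-L1 high cells, 659 in unselected IFN-gamma cells and 235 in untreated cells, and its log2 ratio of 1.29 [1.08 to 1.51] was the smallest of the family above the filter. In PD-L1 high cells Gbp2, Gbp3 and Gbp7 had levels within a narrow range of each other, so the difference between their ratios lies in the untreated library. Gbp5 and Gbp9 had log2 ratios of 2.80 and 2.404. Gbp2b, known as Gbp1 in older naming, stayed below the filter at 2.97 tags in PD-L1 high cells, 7.95 in unselected IFN-gamma cells and 1.0 in untreated cells. GBP genes are close paralogs, so reads that map to several of them may have been split or dropped.

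The IRGs, smaller interferon-induced GTPases that act with the GBPs on microbial vacuoles, followed. Of 12 genes in the list 9 were above the filter and 7 of these passed 2-fold upward. The list had a median log2 ratio of 2.41. Tgtp2 had 473 tags in PD-L1 high cells, 440 in unselected IFN-gamma cells and 13.9 in untreated cells, a log2 ratio of 4.59 [4.01 to 5.66]. Its near-identical neighbour Tgtp1 had 472 tags in PD-L1 high cells, 399 in unselected IFN-gamma cells and 18.9 in untreated cells, and reads may be shared between the pair. Gm12250 had 600 tags in PD-L1 high cells, 486 in unselected IFN-gamma cells and 22.9 in untreated cells, a log2 ratio of 4.29 [3.80 to 5.07]. The 2 regulatory members of the IRG group that were higher had more of the mark in untreated cells. Igtp had 1018 tags in PD-L1 high cells, 1094 in unselected IFN-gamma cells and 153 in untreated cells, a log2 ratio of 2.41 [2.18 to 2.67]. Irgm2 had 673 tags in PD-L1 high cells, 579 in unselected IFN-gamma cells and 149 in untreated cells, a log2 ratio of 1.85 [1.60 to 2.13]. Irgm1, the other regulatory gene, had a log2 ratio of only 0.34, with 1683 tags in PD-L1 high cells and 1070 tags already in untreated cells. Iigp1 and Gm4951 had log2 ratios of 2.70 and 2.35. Gvin1, a very large interferon-induced GTPase gene, lay below the filter with 19.8 tags in PD-L1 high cells, 9.93 in unselected IFN-gamma cells and 0 in untreated cells, at least 6.63-fold higher in PD-L1 high cells against a floor of 3 counted tags in the untreated library and without centring. Gm4070 held the same tags, so the pair cannot be told apart.

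**Figure D2:**
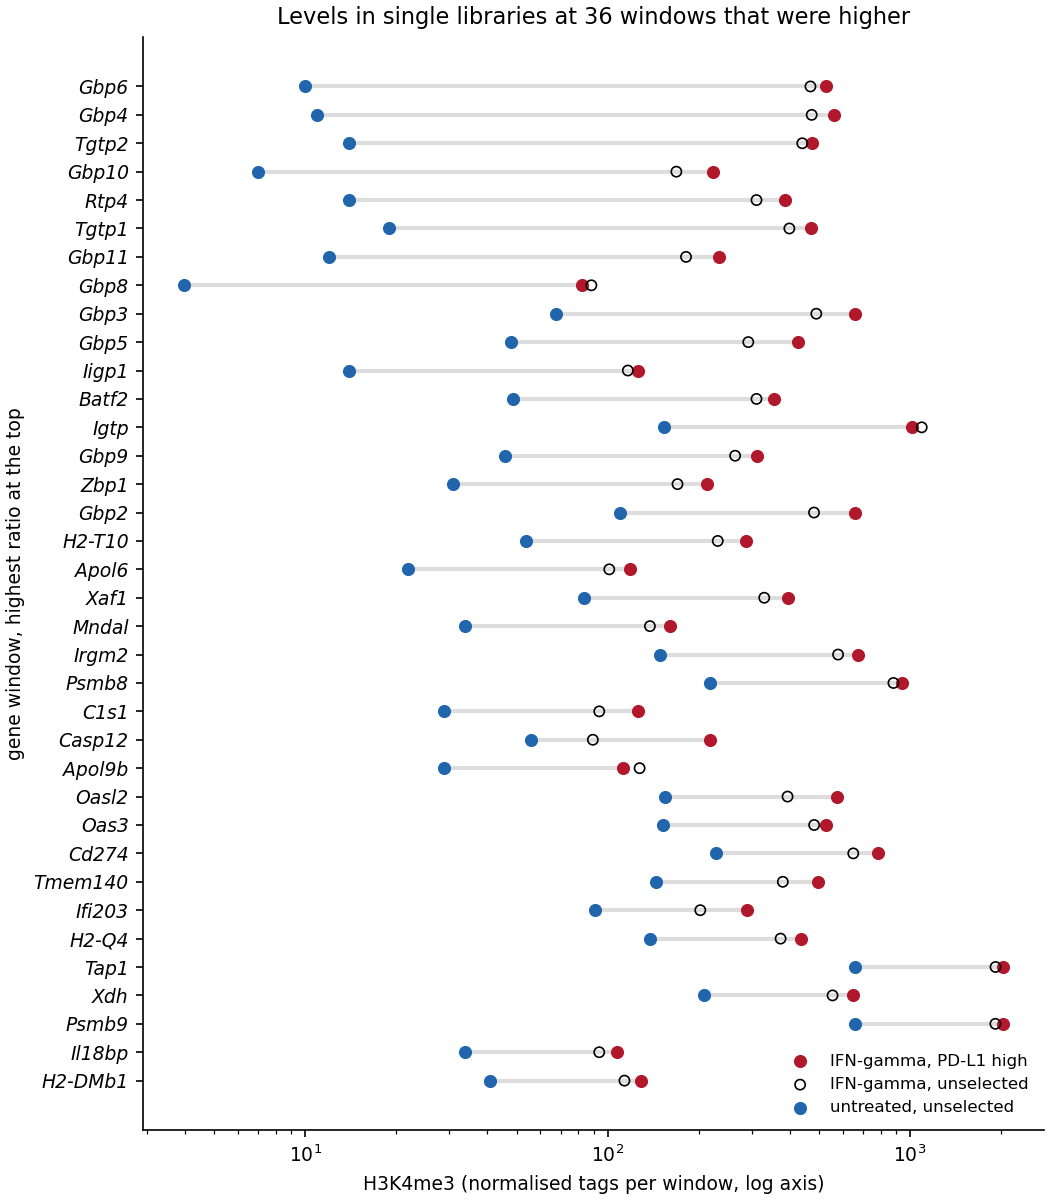
Normalised H3K4me3 tags per window on a log x axis for the 36 windows with the highest ratios that carry a gene symbol other than a predicted, RIKEN or microRNA name, with red points for PD-L1 high, open points for unselected IFN-gamma and blue points for untreated cells. The red and open points lie together to the right of the blue points in nearly every row, with Casp12 at 218 tags in PD-L1 high, 89.4 in unselected IFN-gamma and 55.8 in untreated cells as the row in which the open point lies nearer the blue one. Tap1 and Psmb9 share a window.

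The receptor and kinase genes that carry the IFN-gamma signal differed little, and 2 interferon transcription factor genes were past 2-fold. The receptor chains Ifngr1 and Ifngr2 had log2 ratios of 0.30 and 0.06, and the kinase genes Jak1 and Jak2 had 0.22 and 0.20, all with 327 tags or more in untreated cells. Stat2 and Stat5b reached 0.54 each. Of 10 interferon transcription factor genes above the filter, of 15, Batf2 and Irf1 were past 2-fold. Batf2, an AP-1 family factor that pairs with IRF1 in macrophages, had 354 tags in PD-L1 high cells, 311 in unselected IFN-gamma cells and 48.8 in untreated cells, a log2 ratio of 2.50 [2.12 to 3.01]. Irf1 had 1519 tags in PD-L1 high cells, 1537 in unselected IFN-gamma cells and 611 in untreated cells, a log2 ratio of 1.001 [0.87 to 1.14], and it fell under 2-fold after quantile normalisation, at 0.96. Irf7 lay on the other side at -0.54.

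No gene that damps JAK-STAT signalling passed 2-fold: 0 of 17 in the list were past it in either direction, with a median log2 ratio of 0.14. Socs1, the main inhibitor of the JAK kinases after IFN-gamma, had 1790 tags in PD-L1 high cells, 1693 in unselected IFN-gamma cells and 1036 in untreated cells, a log2 ratio of 0.48 [0.37 to 0.59]. Socs2 had the highest ratio of the list at 0.51, followed by Socs1 and by the phosphatase gene Ptpn2 at 0.44. In untreated cells Socs2 and Ptpn2 had 380 and 305 tags, below the median of 468 over all windows above the filter. The transactivators of the MHC genes stayed below the filter. Nlrc5, which drives MHC class I, had 10.4 tags in PD-L1 high cells, 9.93 in unselected IFN-gamma cells and 22.4 in untreated cells. Ciita, which drives MHC class II, had 6.93 tags in PD-L1 high cells, 26.8 in unselected IFN-gamma cells and 15.9 in untreated cells.

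For antigen presentation, 2 of 7 immunoproteasome and PA28 genes, Psmb8 and Psmb9, were past 2-fold, as were Tap1, which shares its window with Psmb9, and the nonclassical class I genes H2-T10 and H2-Q4. Psmb8 (chr17, in the MHC) had 943 tags in PD-L1 high cells, 882 in unselected IFN-gamma cells and 218 in untreated cells, a log2 ratio of 1.79 [1.59 to 2.02]. Tap1, a chain of the transporter that carries peptides into the endoplasmic reticulum, had 2029 tags in PD-L1 high cells, 1919 in unselected IFN-gamma cells and 656 in untreated cells, a log2 ratio of 1.32 [1.19 to 1.45]. Psmb9 lies head to head with Tap1 and its window held nearly the same tags, at a log2 ratio of 1.31, so the 2 promoters cannot be told apart here. Psmb10, the third subunit specific to the immunoproteasome, lies elsewhere and had 760 tags in PD-L1 high cells and 841 tags in untreated cells, a log2 ratio of -0.46.

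Of 18 class I and peptide loading genes above the filter, of 22, 3 passed 2-fold upward and none downward, with a median log2 ratio of 0.28. The nonclassical genes H2-T10 and H2-Q4 had log2 ratios of 2.06 and 1.34. H2-K1, the classical K chain, had 1035 tags in PD-L1 high cells, 995 in unselected IFN-gamma cells and 561 in untreated cells, a log2 ratio of 0.57 [0.42 to 0.72]. B2m, the light chain of all class I molecules, had 1201 tags in PD-L1 high cells, 1099 in unselected IFN-gamma cells and 740 in untreated cells, a log2 ratio of 0.39 [0.26 to 0.52]. Tap2 and the loading factor Tapbp had 0.29 and 0.14, and Tapbpl, a second peptide editor, had -0.82. H2-T22 had 0.90, in a window it shares with H2-T9. Of 30 constitutive proteasome genes above the filter none was past 2-fold, with a median log2 ratio of 0.05.

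Of 13 MHC class II presentation genes 9 lay below the filter, and 1 of the 4 above it was past 2-fold. This was H2-DMb1, a chaperone chain of class II peptide loading, with 129 tags in PD-L1 high cells, 114 in unselected IFN-gamma cells and 40.8 in untreated cells, a log2 ratio of 1.30 [0.83 to 1.89]. The same window held H3K27me3, the mark of Polycomb repressive complex PRC2, at 764 tags in PD-L1 high cells and 447.5 tags in untreated cells. The invariant chain gene Cd74 lay below the filter with 56.4 tags in PD-L1 high cells, 52.6 in unselected IFN-gamma cells and 23.9 in untreated cells.

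Cd274 (chr19:29362107-29388095), which encodes PD-L1, was the only 1 of the 10 checkpoint genes above the filter past 2-fold, and 12 more of the list lay below it. Its window held 786 tags in PD-L1 high cells, 650 in unselected IFN-gamma cells and 229 in untreated cells, a log2 ratio of 1.46 [1.255 to 1.69]. PD-L1 protein is the trait by which the cells were chosen, and the cells that were treated but not selected had a log2 ratio over untreated of 1.26 [1.05 to 1.49]. The ratio of PD-L1 high over unselected IFN-gamma cells, both treated, was 0.20 [0.05 to 0.35]. Pdcd1lg2, which encodes PD-L2 and lies next to Cd274, had 3.46 tags in PD-L1 high cells, 5.96 in unselected IFN-gamma cells and 11.5 in untreated cells, all below the filter. Cd47, the signal that holds off phagocytes, had a log2 ratio of 0.32, and Ceacam1, a proposed ligand of TIM-3, had -0.95, with 221 tags in PD-L1 high cells and 345 tags in untreated cells.

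Of the chemokine genes that IFN-gamma induces in many cells, Cxcl9 and Cxcl11 had little H3K4me3 and Cxcl10 lay near the median window. Cxcl9 had 3.96 tags in PD-L1 high cells, 13.9 in unselected IFN-gamma cells and 7.97 in untreated cells. Cxcl10 had 55.4 tags in PD-L1 high cells, 49.7 in unselected IFN-gamma cells and 63.7 in untreated cells, and Cxcl11 had 9.89 in PD-L1 high cells, 9.93 in unselected IFN-gamma cells and 17.9 in untreated cells. All 3 lay below the filter, and none was higher in PD-L1 high than in untreated cells. Of 12 cytokine and CC chemokine genes above the filter, of 38, Il18bp was higher and Tnf lower. Il18bp, the secreted decoy of interleukin-18, had 108 tags in PD-L1 high cells, 93.9 in unselected IFN-gamma cells and 33.9 in untreated cells, a log2 ratio of 1.31 [0.79 to 1.96]. Tnf had 44.0 tags in PD-L1 high cells, 61.1 in unselected IFN-gamma cells and 85.6 in untreated cells, a log2 ratio of -1.24 [-1.83 to -0.73]. Tnf was within 2-fold without centring, at -0.93, and after quantile normalisation, at -0.60.

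Among 25 antiviral effector genes above the filter, of 35, 4 were higher and 1 was lower, with a median log2 ratio of 0.28. Rtp4, a chaperone of membrane receptors that is strongly induced by interferons, had 387 tags in PD-L1 high cells, 311 in unselected IFN-gamma cells and 13.9 in untreated cells, a log2 ratio of 4.30 [3.72 to 5.37]. Xaf1, Oasl2 and Oas3 had log2 ratios of 1.90, 1.58 and 1.46. Mx2, a GTPase that blocks viruses, was the lower member at -1.16, with 51.5 tags in PD-L1 high cells and 94.1 in untreated cells. It was within 2-fold without centring, at -0.85, and after quantile normalisation, at -0.58. Its H3K27Ac, a mark of active promoters and enhancers, stood at 361 tags in PD-L1 high cells and 197 tags in untreated cells. Bst2, which tethers budding viruses to the cell, stopped short of 2-fold at 0.89, and Isg15 had 0.55. The 10 antiviral genes below the filter had 2.97 to 70.2 tags in PD-L1 high cells and 3.98 to 49.8 tags in untreated cells, and they differed in direction. Ifit3 had 64.3 tags in PD-L1 high cells, 32.8 in unselected IFN-gamma cells and 3.98 in untreated cells, a log2 ratio of 3.16. Ifi44 had 49.5 tags in PD-L1 high cells, 29.8 in unselected IFN-gamma cells and 4.98 in untreated cells, a log2 ratio of 2.57. Mx1 had 14.4 tags in PD-L1 high cells, 5.96 in unselected IFN-gamma cells and 27.4 in untreated cells, a log2 ratio of -1.16. Windows below the filter as a whole summed to 99344 tags in PD-L1 high cells and 165141 in untreated cells. With no filter on low windows 5560 were at least 2-fold lower and 190 higher, so a ratio like that of Mx1 was common at such levels.

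Of 12 nucleic acid sensor genes above the filter, of 17 in the table, 3 were higher and none lower. Zbp1, a sensor of Z-form nucleic acid that can start necroptosis, had 213 tags in PD-L1 high cells, 170 in unselected IFN-gamma cells and 30.9 in untreated cells, a log2 ratio of 2.401 [1.93 to 3.07]. Ifi203 and Ifi205, of the Ifi200 family of DNA-binding proteins, had log2 ratios of 1.35 and 1.30. Their relative Ifi204 had 0.93, as did Ifih1, the RNA sensor MDA5. Among the other sensors Aim2 had -0.27 and Tlr3 had -0.53. Of 21 interferon-induced Parp, Trim and ubiquitin genes above the filter 3 were higher, with a median log2 ratio of 0.39. They were the ADP-ribosyltransferase genes Parp12 and Parp11 at 1.12 and 1.03 and the ubiquitin ligase gene Trim34a at 1.06. Parp14, Dtx3l and Parp9 followed at 0.78, 0.56 and 0.55.

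Inflammatory caspases, complement proteases and metabolic enzymes made up most of the remaining list members past 2-fold. Of 29 cell death genes above the filter 2 were higher. Casp12 (chr9:5345442-5373034) had 218 tags in PD-L1 high cells, 89.4 in unselected IFN-gamma cells and 55.8 in untreated cells, a log2 ratio of 1.62 [1.23 to 2.10]. Its neighbour Casp4, the murine sensor of cytosolic lipopolysaccharide, had 204 tags in PD-L1 high cells, 143 in unselected IFN-gamma cells and 75.7 in untreated cells, a log2 ratio of 1.10 [0.73 to 1.52]. At Casp12 the PD-L1 high library stood clear of both others: its log2 ratio over unselected IFN-gamma cells was 1.19 [0.85 to 1.58]. Tnfsf10, which encodes the death ligand TRAIL, had 148 tags in PD-L1 high cells, 81.4 in unselected IFN-gamma cells and 58.7 in untreated cells. Fas and the necroptosis effector Mlkl had 0.67 and 0.52.

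Of 7 complement and serpin genes above the filter, of 17, the neighbouring protease genes C1s1 and C1ra were higher, at 1.74 and 1.02, and Cfd, which encodes complement factor D, was lower at -1.48 but within 2-fold after quantile normalisation, at -0.79. Of 14 tryptophan and metabolic interferon targets above the filter, of 31, 4 were higher. They were the apolipoprotein L genes Apol6 and Apol9b at 2.03 and 1.59, Nos2, the inducible nitric oxide synthase, at 1.11, and Wars, which charges tryptophan onto its transfer RNA, at 1.0 in a window shared with Wdr25 and at 0.99 after quantile normalisation. Nos2 had 102 tags in PD-L1 high cells, 61.1 in unselected IFN-gamma cells and 36.8 in untreated cells, and its H3K27me3 stood at 544 tags in PD-L1 high cells and 476 tags in untreated cells. Ido1, the tryptophan-degrading enzyme, stayed below the filter with 11.9 tags in PD-L1 high cells, 17.9 in unselected IFN-gamma cells and 25.9 in untreated cells.

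Of the 60 higher windows 46 belonged to genes of the 42 lists, which were drawn up with earlier results of these data known. The other 14 held Tmem140 at a log2 ratio of 1.45, Xdh, which encodes xanthine dehydrogenase, at 1.31, the crosslinking enzyme gene Tgm2 at 1.27, Samd9l, a translation-blocking restriction factor, at 1.21, the lipid acyltransferase gene Plaat3 at 1.18 and the surface antigen gene Ly6c1 at 1.04. They also held Mndal, of the Ifi200 family, at 1.87, and 9330175E14Rik, an unnamed transcript, at 2.07. Tgm2 had 418 tags in PD-L1 high cells, 382 in unselected IFN-gamma cells and 138 in untreated cells. Greb1l and Cables1, which overlaps Gm6277, both lie on chromosome 18 and had 1.19 and 1.04. Several windows held the same tags as a neighbour, and merging windows whose values agree within 5% left 56 distinct windows of the 60, 263 of the 267 and 11181 of the 12754.

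**Figure D3:**
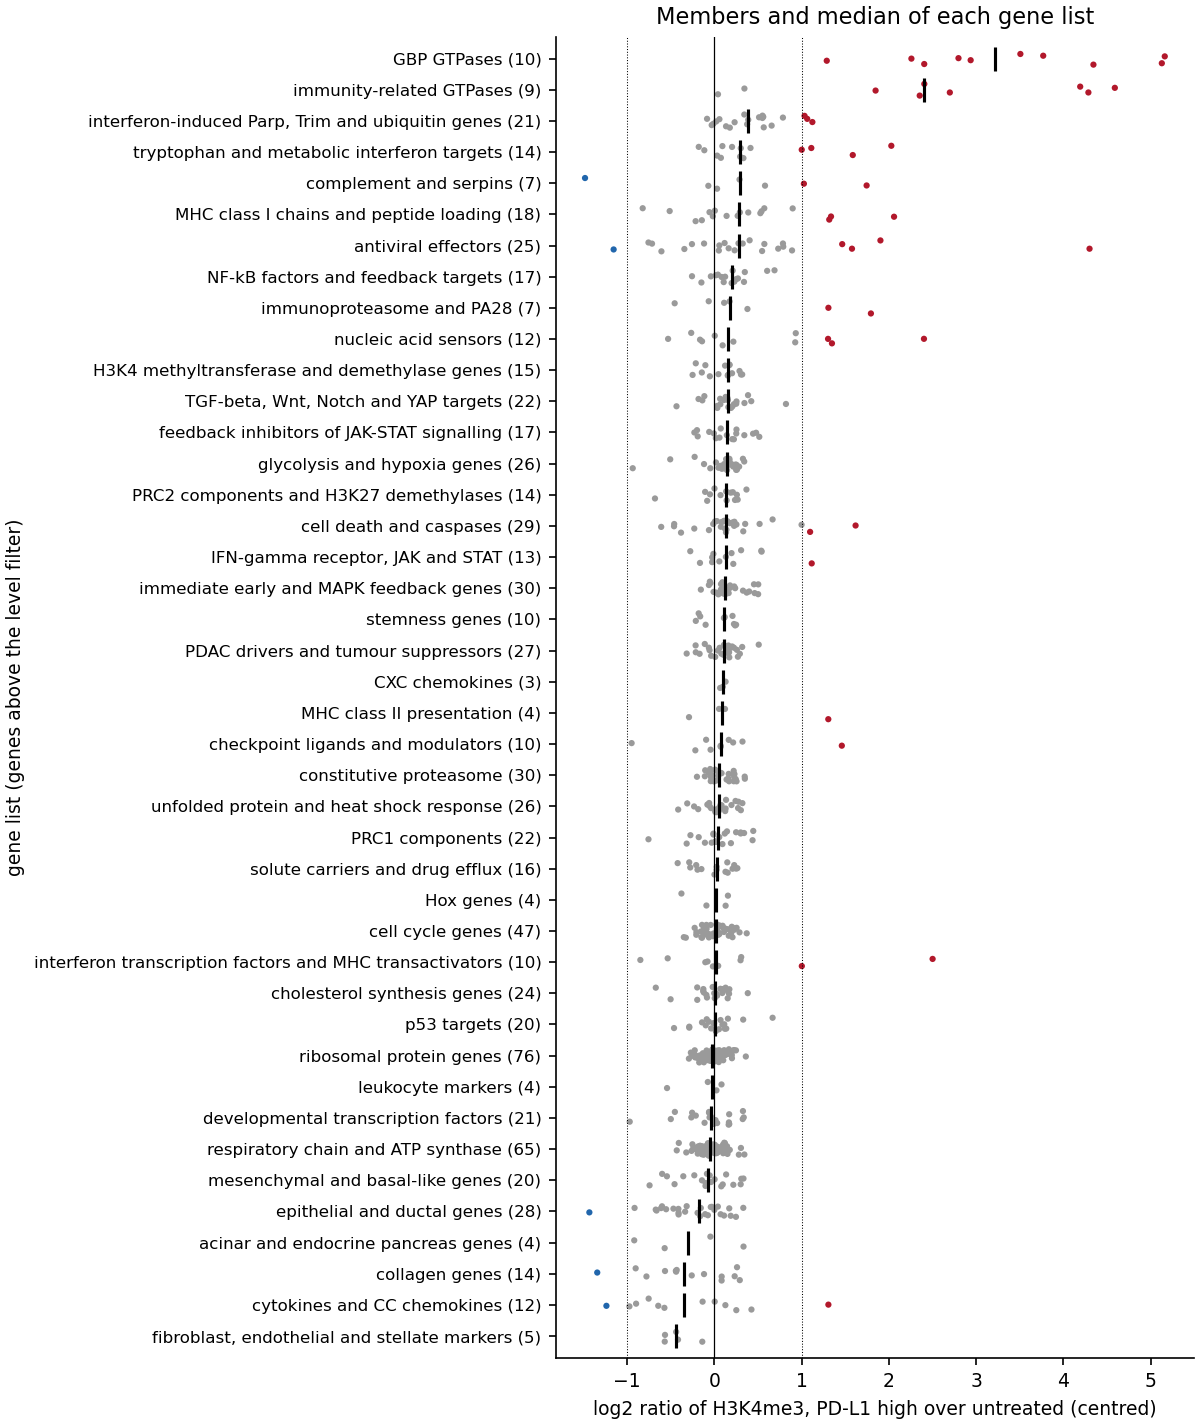
Each row is 1 of the 42 gene lists, each point 1 gene above the level filter placed by its centred log2 ratio of H3K4me3, PD-L1 high over untreated, with the list median as a black bar, red for genes at least 2-fold higher and blue for genes at least 2-fold lower. The GBP and IRG lists stand far to the right with medians of 3.22 and 2.41, and the medians of all other lists lie between -0.44 and 0.39.

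Away from interferon genes the lists held few windows past 2-fold. In 25 of the 42 lists, with 565 gene entries above the filter, no member was past 2-fold in either direction, and their medians ran from -0.44 to 0.20. They included 76 ribosomal protein genes with a median of -0.03, 47 cell cycle genes with 0.01, 27 drivers and suppressors of pancreatic cancer with 0.11, 17 NF-kB factors and feedback targets with 0.20 and 30 immediate early genes with 0.12. Within the NF-kB list Nfkbia, the inhibitor that NF-kB induces, had the highest ratio at 0.69, followed by Tnfaip3 at 0.60. The 15 methyltransferase and demethylase genes of H3K4 above the filter had a median of 0.15. Of 28 epithelial genes above the filter, of 44, Cldn7, a tight junction gene, was past 2-fold, at -1.43 with 90.0 tags in PD-L1 high cells and 199 in untreated cells, and the median was -0.18. Of 14 collagen genes above the filter Col11a2 was past 2-fold, at -1.34. Without centring the medians of 7 of the 42 lists changed sign, and the largest of these had been 0.31 from 0.

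The 267 lower windows were mostly weakly marked in both libraries. Their median was 57.4 tags in PD-L1 high cells, 72.5 in unselected IFN-gamma cells and 114.5 in untreated cells, against 468 tags in untreated cells over all windows above the filter. In the lowest decile of windows by level, from 57.6 to 135 tags, the median log2 ratio was -0.55, and this decile held 233 of the 267. Among the 6377 windows with the highest levels 9 were higher and 1 was lower. The 12753 windows below the filter moved the same way, holding 1.12% of the summed window tags in PD-L1 high cells and 2.33% in untreated cells. The summed window tags thus differed between the libraries along with the lower calls, and their part in these calls was not tested.

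Spats1, a testis gene, had 29.7 tags in PD-L1 high cells, 64.6 in unselected IFN-gamma cells and 106.5 in untreated cells, a log2 ratio of -2.09 [-2.79 to -1.56]. Sectm1b, a secreted and transmembrane protein gene, had 36.1 tags in PD-L1 high cells, 40.7 in unselected IFN-gamma cells and 112.5 in untreated cells, a log2 ratio of -1.90 [-2.53 to -1.40]. Plvap, an endothelial gene, had 38.1 tags in PD-L1 high cells, 64.6 in unselected IFN-gamma cells and 116.5 in untreated cells, a log2 ratio of -1.87 [-2.49 to -1.39]. The unselected IFN-gamma library lay between the other 2 in all 3 cases. These genes were chosen for a low ratio of PD-L1 high over untreated, so this order is not evidence of a graded difference. Rxfp4, Smim5, Arhgef15, Ccdc154, Krt13, Otop2, Gnb3, Nrxn2, Hgfac, Fermt3, Zfp385c and Arhgap27os3 complete the 15 lowest named genes, between -2.02 and -1.64. Among lower windows with a stronger mark, Eppk1, which encodes a plakin of epithelial cells, had 154 tags in PD-L1 high cells, 175 in unselected IFN-gamma cells and 329 in untreated cells, a log2 ratio of -1.39. Il1rn, the interleukin-1 receptor antagonist, had 85.1 tags in PD-L1 high cells, 142 in unselected IFN-gamma cells and 216 in untreated cells, a log2 ratio of -1.63. Eppk1 and Il1rn were singled out after their values were seen, and both stayed past 2-fold under every scaling. Of the 15 lowest named genes all stayed past 2-fold under every scaling. The 1 lower window among the 6377 with the highest levels, 2700054A10Rik, had 885 tags in PD-L1 high cells, 1423 in unselected IFN-gamma cells and 2883 in untreated cells. It held 7869 tags of H3K27Ac in PD-L1 high cells and 8386 in untreated cells, the most of any window above the H3K4me3 filter. Windows within 2-fold reached 5757 and 4809. The other 2 marks were also high there in untreated cells, at 8635.9 tags of H2A119Ub and 1883 of H3K27me3, so the signal was not particular to 1 antibody.

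Many higher windows lay near each other on the chromosomes, as did many lower ones. With genes within 500 kb joined, the 60 windows fell into 37 loci, and 12 loci with more than 1 window held 35 of them. Some of these loci are neighbours that share a window, such as Wars and Wdr25. Of the 265 lower windows with coordinates, 183 lay in 48 loci with more than 1 window. The largest locus of higher windows was the GBP cluster on chromosome 5 from Gbp8 to Gbp11 (chr5:105012513-105346476), where 6 windows were higher. Within 200 kb of it the other 3 windows above the filter, Zfp951, Lrrc8b and Lrrc8c, had log2 ratios from 0.03 to 0.24. The GBP cluster on chromosome 3 (chr3:142496934-142638008) held 5 higher windows, 1 of them the microRNA gene Mir6381, and its other 4 windows above the filter, Pdlim5, Kyat3, Gtf2b and Pkn2, ran from 0.14 to 0.36. The difference thus stopped at the edges of both GBP clusters.

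In the MHC class II region on chromosome 17 (chr17:34153191-34201454, with 200 kb on each side) 4 windows were higher and the other 16 above the filter ran from -1.34 at Col11a2 to 0.57 at H2-K1, with a median of 0.04. Brd2 and H2-DMa, neighbours with the most strongly marked windows there, had 0.15 and 0.12. In the Ifi200 cluster on chromosome 1 all 5 windows above the filter leaned to PD-L1 high cells, with 3 past 2-fold and with Ifi204 and Ifi211 at 0.93 and 0.74, and the other windows within 200 kb lay below the filter. Around Gm12250, Igtp and Irgm2 on chromosome 11 the other 7 windows above the filter ran from -0.80 to 0.19.

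The other marks were read in separate libraries of the same 2 states, and at most of the higher windows H3K27Ac was also higher. Over all 12757 windows above the filter of H3K27Ac, 0.392% passed 2-fold upward and 1.77% downward in PD-L1 high cells. Of the 60 windows with higher H3K4me3, 48 were above that filter, and 15 of these (31.2%) were at least 2-fold higher in H3K27Ac, none was 2-fold lower, and the median log2 ratio was 0.70. Gbp7, which had the smallest H3K4me3 ratio of its family, had the largest in H3K27Ac, with 114 tags in PD-L1 high cells, 111 in unselected IFN-gamma cells and 16.2 in untreated cells, a log2 ratio of 2.28. Tgtp1 had 136 tags of H3K27Ac in PD-L1 high cells, 152 in unselected IFN-gamma cells and 27.4 in untreated cells, a log2 ratio of 1.92. Casp12 had 116 tags of H3K27Ac in PD-L1 high cells, 53.7 in unselected IFN-gamma cells and 32.5 in untreated cells, again with the unselected IFN-gamma library nearer the untreated one. Cd274 had 145 tags of H3K27Ac in PD-L1 high cells, 129 in unselected IFN-gamma cells and 50.7 in untreated cells, a log2 ratio of 1.23. The H3K27Ac ratio was above 0 in 43 of the 48. The others were Tgm2 at -0.39 [-0.77 to -0.03], C1ra at -0.33, Tmem140 at -0.16, H2-DMb1 at -0.12 and Batf2 at -0.06. At the lower windows H3K27Ac leaned the same way as H3K4me3: of 239 above its filter 41 (17.2%) were at least 2-fold lower, none was 2-fold higher, 12 had a ratio above 0 and the median was -0.65.

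**Figure D4:**
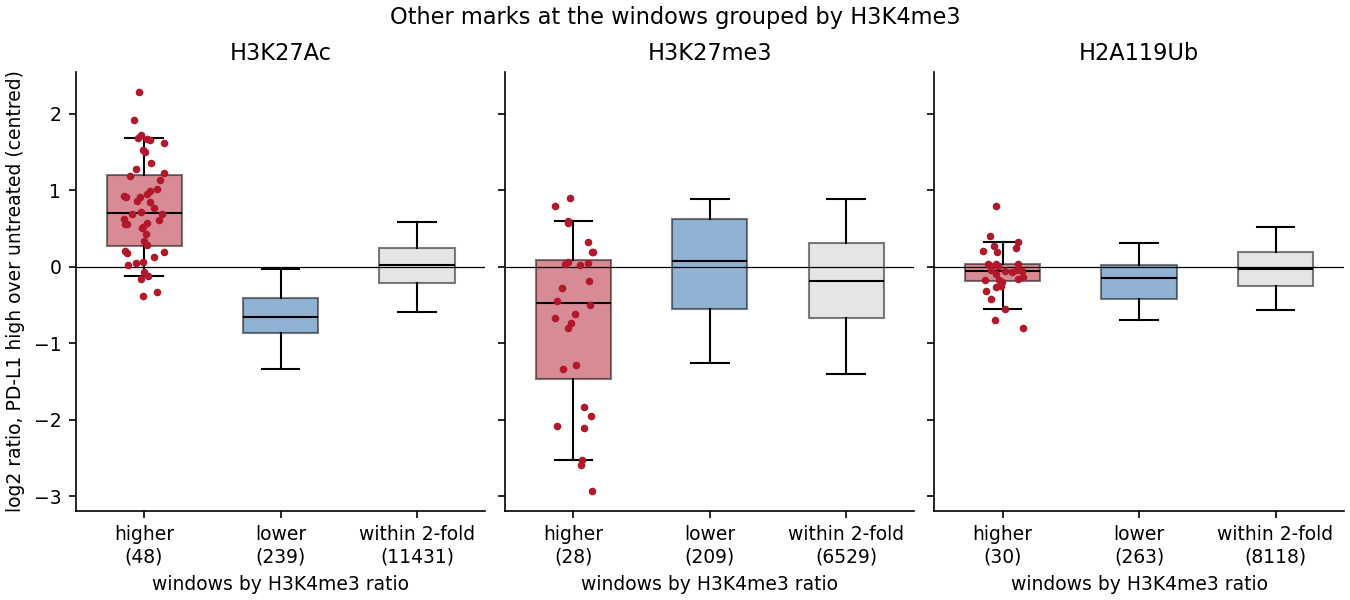
Centred log2 ratios of H3K27Ac, H3K27me3 and H2A119Ub, PD-L1 high over untreated, for windows grouped by their H3K4me3 ratio, with the number of windows above each mark's own filter in brackets. Boxes span the quartiles with the median as a line, whiskers the 5th to 95th percentile, and red points are single windows that were higher in H3K4me3, whose medians are 0.70 in H3K27Ac, -0.47 in H3K27me3 and -0.06 in H2A119Ub.

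H3K27me3 was low at most of the higher windows but high at a part of them, and it was lower in PD-L1 high cells at several that carried it. In untreated cells its median was 12.2 tags over the higher windows and 14.2 tags over all windows above the H3K4me3 filter. The upper quartiles were 76.7 and 27.9 tags. The top decile of windows by untreated H3K27me3 held 16 of the 60 higher windows, the most of any decile, and the lowest decile held 13. Over all windows above the filter of H3K27me3, 2.54% passed 2-fold upward and 8.88% downward. Of the 60 windows 28 were above this filter, and 9 of these (32.1%) were at least 2-fold lower and none was 2-fold higher, beside 13.0% lower among all windows above both filters. The median log2 ratio of H3K27me3 was -0.47 over the 28, beside -0.17 over all windows above both filters. Psmb8 had 17.6 tags of H3K27me3 in PD-L1 high cells, 48.6 in unselected IFN-gamma cells and 121 in untreated cells, a log2 ratio of -2.52. Tap1 had 26.2 tags in PD-L1 high cells, 78.0 in unselected IFN-gamma cells and 131 in untreated cells, and Gbp5 had 26.2 in PD-L1 high cells, 39.0 in unselected IFN-gamma cells and 116 in untreated cells. Igtp had 4.02 tags in PD-L1 high cells, 11.1 in unselected IFN-gamma cells and 48.3 in untreated cells, a log2 ratio of -2.93. In these 4 windows H3K27me3 was lowest in PD-L1 high cells and highest in untreated cells. Gbp7, Gbp3, Psmb9, Zbp1 and 9330175E14Rik were the other 5 that were at least 2-fold lower. Over all windows above the H3K4me3 filter the median H3K27me3 was 9.05 tags in PD-L1 high cells and 18.2 in unselected IFN-gamma cells. In untreated cells it was 14.2, so PD-L1 high cells were the lowest there too. H2A119Ub, the ubiquitin mark of PRC1, had a median log2 ratio of -0.06 over the 30 higher windows above its filter, with none past 2-fold.

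In untreated cells the lower windows carried more of the repressive marks than most windows. Their median H2A119Ub was 149 tags, against 50.4 tags over all windows above the H3K4me3 filter, and their median H3K27me3 was 50.8 tags, against 14.2 tags. When the windows were put into deciles by untreated H2A119Ub, the top decile held 156 of the 267 lower windows and 6 of the 60 higher ones, and its median log2 ratio of H3K4me3 was -0.24. The lowest decile held 0 lower and 10 higher windows. Plvap had H3K27me3 at 721 tags in PD-L1 high cells and 473 tags in untreated cells, and Nrxn2, a synaptic adhesion gene, had 1575 tags in PD-L1 high cells and 1075 tags in untreated cells. Over the 209 lower windows above the H3K27me3 filter the median log2 ratio of H3K27me3 was 0.07, beside -0.17 over all windows above both filters. Of the 209, 27 (12.9%) were at least 2-fold lower and 4 (1.91%) at least 2-fold higher. The shares over all windows above both filters were alike, at 13.0% and 2.65%.

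Promoter sequence was listed for 37 of the 60 genes with higher windows, 161 of the 267 with lower windows and 9841 genes above the filter, as 250 bases before to 50 bases after the RefSeq start. A GAS occurred in the promoters of 12 of the 37 higher genes (32.4%), 8.07% of the lower genes and 7.82% of all genes above the filter. The ISRE core occurred in 18 of the 37 (48.6%), 2.48% of the lower genes and 3.50% of all. Either motif was found in 22 of the 37 (59.5%), 8.70% of the lower genes and 10.8% of all. Both were found in 8 of the 37 (21.6%), 1.86% of the lower genes and 0.488% of all. Tgtp1, Tgtp2, Igtp and Irgm2, whose promoters are much alike, count as separate genes in these shares. Over the 27025 genes of the promoter table, 9.55% had a GAS and 3.99% an ISRE core. A GAS reads the same on both strands in this search, and a GAS and an ISRE core can overlap by some bases.

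**Figure D5:**
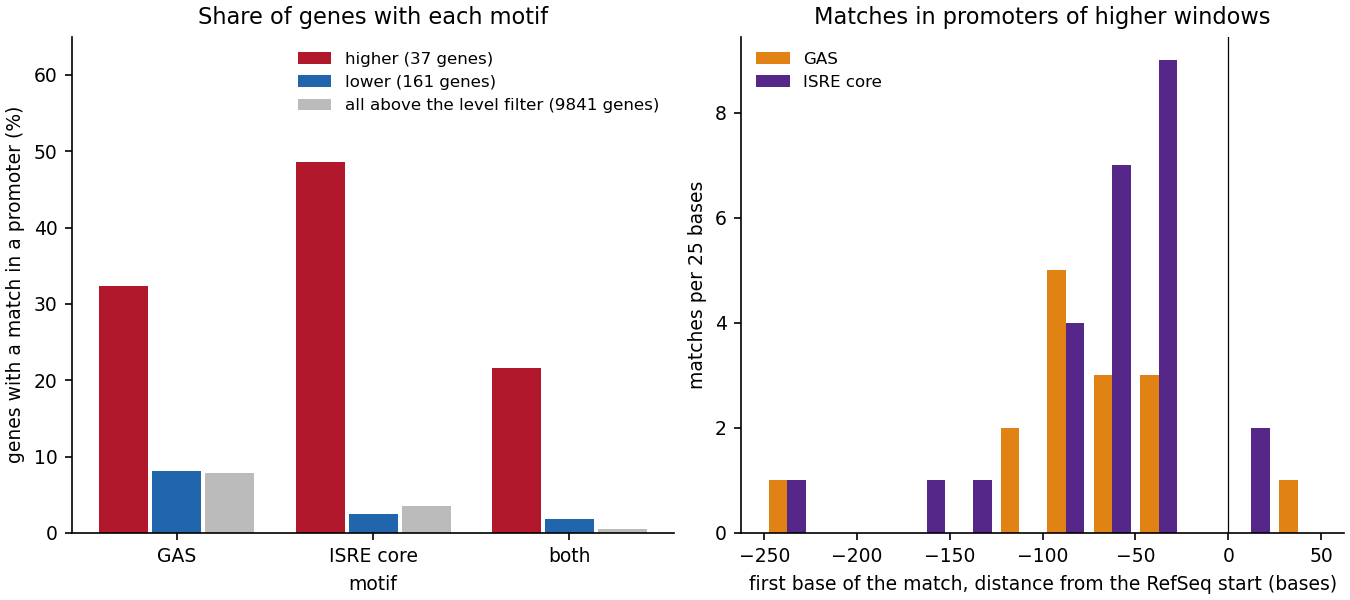
The left panel gives the share of genes with a GAS, an ISRE core or both in a listed promoter, in percent, for genes with higher windows, lower windows and all windows above the level filter. The right panel counts the matches in promoters of genes with higher windows by the distance of their first base from the RefSeq start in bins of 25 bases, and most fall in the 100 bases upstream of it.

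The matches of the higher genes lay close to the start. Of their 15 GAS matches 11 (73.3%) and of their 25 ISRE core matches 20 (80.0%) began within 100 bases upstream, beside 34.4% and 30.6% of the matches over all genes above the filter. The paired arrangement of the first 4 sequences shown above, a GAS followed 11 bases later by an ISRE core on the other strand, occurred in 5 of 32851 listed promoters. The spacing and strand searched for were those of these 4 sequences, which come from related genes and are much alike. The count therefore describes them and is no separate evidence of a link to the higher windows. With distances counted from the RefSeq start, the GAS began at -88 in Tgtp1, -81 in Tgtp2, -45 in Igtp and -75 in Irgm2, all with higher windows. The fifth promoter was that of Gm12185 on chromosome 11, whose window lay below the filter with 63.3 tags in PD-L1 high cells, 59.6 in unselected IFN-gamma cells and 12.9 in untreated cells. Gbp3 had 2 overlapping ISRE cores, at -45 and -39, and Casp12 had 2 GAS matches, at -102 and -36. Irf1 had a GAS at -90. The listed promoter of Cd274 held neither set of letters.

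Higher and lower windows were alike in a further feature of sequence. The median ratio of observed to expected CpG was 0.27 in the promoters of higher genes and 0.29 in those of lower genes, against 0.77 over all genes above the filter. In the fifth of genes with the lowest CpG ratio, 30 windows were higher and 129 lower, and the median log2 ratio of H3K4me3 was -0.14. GC content had a median of 49.0% in higher genes, 57.7% in lower genes and 61.3% in all. Beside genes above the filter, the promoters that differed in either direction were thus mostly poor in CpG. Those of the higher genes were also poorer in GC. Over the 27025 genes of the promoter table the medians were 0.39 for CpG and 52.8% for GC. Against that background the contrast in CpG was smaller, and the lower genes were richer in GC. Genes with the lowest CpG ratio had a median of 293.7 H3K4me3 tags in untreated cells, beside 564.0 in those with the highest. No comparison at like level was made, so a link to CpG apart from level was not tested.

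The H3K4me3 library of unselected IFN-gamma cells gives the level without the choice of PD-L1 high cells. Over the 60 higher windows the median was 371 tags in PD-L1 high cells, 301 in unselected IFN-gamma cells and 61.2 in untreated cells. The windows were chosen for a high value in PD-L1 high cells, so the step between the IFN-gamma libraries is not evidence of a difference. At Igtp, Irf1, Gbp8 and Apol9b unselected IFN-gamma cells held as many tags or more than PD-L1 high cells. Apart from Casp12, the largest log2 ratios of PD-L1 high over unselected IFN-gamma cells among the 60 were those of Nos2 at 0.65 [0.20 to 1.14], Gbp5 at 0.47 [0.26 to 0.69] and Oasl2 at 0.47 [0.29 to 0.66].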

How the data were processed

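CUT&Tag libraries of 4 histone marks in 3 states of KPC1199 cells were deposited as 1 table with a signal per gene and library, which the authors had normalised. Per the submitters' processing notes the tools include MACS2 2.2.7.1, HOMER and Bowtie2 2.4.2, with mm10 as the build and no role or order for any of them. How the window sits on each gene, what was done with duplicate reads and how libraries were scaled is not stated there or in the labels. After multiplication by 6000, all deposited signal values fell within 10% of whole multiples of a step taken as 0.5 tags, from which window length and depth were inferred. A normalised signal is not a count, so no count test was used. All sample columns were used.

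For each mark a pseudocount was added that equals the 10th percentile of the values above 0 (1.99 tags for H3K4me3), windows with a mean of its 3 libraries at or above the median window were kept, and log2 ratios were centred on the median of the kept windows. A ratio on this scale understates differences at low windows. Windows were called at 2-fold. The procedure was tested on simulated data. Exact binomial (Clopper-Pearson) intervals at 95% used the inferred tags. Symbols of 25098 windows matched RefSeq (GRCm38.p6), which gave gene coordinates, and promoters were listed for 18689 windows. The text names the 15 highest and 15 lowest windows with a gene symbol other than a predicted, RIKEN or microRNA name, a set of IFN-gamma genes, and of each list the members past 2-fold and the 4 with the largest ratios, fewer where ratios were small. The lists and the genes were chosen with earlier results of these data known. Alternatives for scaling, pseudocount, filter, threshold and shared windows were run. Python 3.11.15, numpy 2.4.6, pandas 2.3.3 and scipy 1.17.1 were used. Some genes are not reported here.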

Additional observations from a re-analysis of the deposited data

Results flagged for a closer look

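Scmh1, a gene of a PRC1-associated protein, had a log2 ratio over untreated of 0.44 in PD-L1 high cells and -0.41 in unselected IFN-gamma cells, with 198 tags in PD-L1 high cells, 103 in unselected IFN-gamma cells and 116.5 in untreated cells. It is listed because the 2 IFN-gamma libraries lay on opposite sides of the untreated one with both counting intervals off 0. Rpl36, a ribosomal protein gene, was listed for the same reason, with a log2 ratio over untreated of -0.27 in PD-L1 high cells and 0.12 in unselected IFN-gamma cells. For both genes the difference was not tested, since each state has 1 library, and without centring the Rpl36 ratio of PD-L1 high over untreated was 0.04.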

How the results depend on the processing

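The counts of 60 higher and 267 lower windows became 94 and 99 without centring, 96 and 56 after quantile normalisation, 190 and 5560 with no filter on low windows, 9 and 1 at windows in the upper quartile of level, and 129 and 830 at a threshold of 1.5-fold. Requiring the whole counting interval past 2-fold left 62 lower windows. Centring on ribosomal protein, proteasome and respiratory chain genes, pseudocounts of 1 and 10 tags and 1 window per group of neighbours kept both counts within 1.5 times. The filter alternatives kept the centre of the main analysis. The median of the IRG list was 0.34 at the upper quartile of level, where few of its genes remained and no GBP gene did. The median of the class I list was 0.59 without centring and 0.071 with no filter, and that of the antiviral list was 0.59 without centring. Beyond what fewer or more windows and the shift of the centre bring about by construction, the cause was not tested. No gene past 2-fold changed sign under any alternative run. No paired analysis was possible because each state has 1 library and the labels carry no replicate numbers. Leaving out a replicate was likewise not possible.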
